A study of Mus musculus with 28 samples.

Results

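The 10 genes described here encode nuclear export receptors and the RAN cycle that drives them. They are Xpo1, Xpo4, Xpo6, Xpo7, Xpot, Cse1l, Ran, Rcc1, Ranbp1 and Ranbp3. They were taken by gene symbol from a table of raw RNA-seq counts with 24079 rows. Each symbol matched 1 row, and all 10 passed the filter on low counts among 15099 genes tested. The choice by symbol used no threshold on measured values.

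The 28 libraries came from mouse embryonic fibroblasts of a C57BL/6x129Sv background transformed with RAS and DNP53, a dominant-negative p53. All groups share this transformation. Clones 12 and 14 carry tagged cyclin D1 (Ctag), and clones 18 and 25 carry untagged cyclin D1. Both tagged clones were given 8 treatments, 1 library each: leptomycin B at 20 ng/mL, siRNAs against the FLAG or HA tag, the siRNAs labelled Qiagen, Nature and Life that lowered cyclin D1 itself, the control siRNA labelled SCR, and no treatment. Each untagged clone gave 1 library with FLAG, HA and SCR siRNA. Clone 18 carrying FLAG-mCherry-HA/PURO, or mCherry/PURO, gave 3 libraries for each construct, 2 with HA siRNA (REP1 and REP2) and 1 with FLAG siRNA (REP2). Treatment lasted overnight. In the tagged and untagged groups the 2 libraries therefore come from 2 clones, 1 each, whereas the 2 mCherry libraries with HA siRNA of each construct both come from clone 18. The labels do not say whether REP1 and REP2 are separate cultures.

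Proteins with a nuclear export signal leave the nucleus bound to an exportin together with RAN in its GTP form. RCC1, which sits on chromatin, loads RAN with GTP in the nucleus, and RANBP1 helps to release RAN and to hydrolyse its GTP in the cytoplasm, so the cargo is set free there. XPO1, also called CRM1, is the main exportin of proteins with a leucine-rich export signal and of many RNA-protein complexes, and RANBP3 is its nuclear cofactor. Leptomycin B is a Streptomyces product that binds XPO1 covalently and blocks its cargo groove. XPO4 exports the translation factor eIF5A and SMAD3, XPO6 exports actin bound to profilin, XPO7 has a broad set of cargoes, XPOT exports mature tRNA, and CSE1L returns importin alpha to the cytoplasm.

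The 250 bases upstream of the annotated start are shown for Xpo1, the gene of the protein that leptomycin B blocks, and for Xpot. Xpot differed between clones 12 and 14 and between FLAG and HA siRNA. The sequences are from RefSeq, build GRCm38.p6, the assembly of mm10. That table held 6 of the 10 genes (Xpo1, Xpo6, Xpot, Ran, Rcc1 and Ranbp1). The Xpo1 window is chr11:23255791-23256040 on the plus strand and the Xpot window is chr10:121626333-121626582 on the minus strand. Capitals mark CCAAT in Xpo1 and CACGTG in Xpot, both searched on either strand.

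Xpo1: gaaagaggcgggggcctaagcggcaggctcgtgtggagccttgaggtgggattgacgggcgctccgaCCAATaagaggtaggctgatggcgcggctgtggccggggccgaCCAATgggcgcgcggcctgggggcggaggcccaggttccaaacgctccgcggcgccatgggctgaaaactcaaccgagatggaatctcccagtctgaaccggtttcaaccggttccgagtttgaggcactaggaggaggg

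Xpot: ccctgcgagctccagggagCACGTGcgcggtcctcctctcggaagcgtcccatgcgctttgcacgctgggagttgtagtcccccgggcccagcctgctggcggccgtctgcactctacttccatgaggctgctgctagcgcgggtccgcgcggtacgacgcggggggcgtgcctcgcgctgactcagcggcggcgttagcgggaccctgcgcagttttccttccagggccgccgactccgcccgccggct

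Xpo1 held 2 copies of CCAAT, starting 183 and 140 bases before the start, and 10.1% of 32851 promoter windows of this length held 2 or more. CCAAT is a sequence that the factor NF-Y binds, and 33.8% of windows held at least 1 copy. CACGTG, an E-box, stood 231 bases before the Xpot start and 118 bases before the Ran start, and 6.02% of windows held it. Xpo6 and Ranbp1 each held 1 CCAAT. These matches are letters in a window and say nothing on binding.

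The files give 26558256 to 81512769 counts per library. The SCR library of clone 12 had the fewest genes with counts, 14132, and the rRNA precursor Rn45s made up over 2% of 4 libraries (HA clone 12, Nature clone 14, Life clone 14 and mCherry HA REP2). Cyclin D1 transcripts (Ccnd1) checked the labels. Ccnd1 stood between 50.1 and 329 CPM (counts scaled to library size with TMM factors) in the 10 libraries of tagged clones with a targeting siRNA, against 1128 and 1287 CPM with SCR. Vim, a mesenchymal marker, reached at least 2768 CPM in every library. Of the fibroblast markers, the collagen genes Col1a1 and Col1a2 and the surface protein gene Thy1 were nearly absent in clone 14. Their values there were 0.292 to 0.967 CPM, 0.201 to 2.24 CPM and 0 to 0.0494 CPM. Clone 12 had 343 to 710 CPM, 1771 to 2505 CPM and 9.37 to 33.1 CPM. Fn1 was lower in clone 14 but present, with 191 to 757 CPM, against 1305 to 2652 CPM in clone 12. The lowest values in any library were 186 CPM for S100a4, 3.14 CPM for Pdgfra and 1.02 CPM for Pdgfrb. Summed macrophage and leukocyte markers (4 of 5 in the table) were at most 6.82 CPM, endothelial markers at most 1.95 CPM and muscle markers at most 13.1 CPM. Epithelial markers summed to 87.4 to 1958 CPM, of which Krt18 alone made 86.5 to 1919 CPM, while Epcam and Krt14 stayed under 1 CPM. The epithelial markers Cdh1 and Krt8 were higher in clone 14 (21.7 to 40.0 CPM and 2.61 to 10.9 CPM) than in clone 12. Clone 12 had 0.227 to 1.16 CPM and 0 to 0.688 CPM. Clone 18 had 3.35 to 5.96 CPM of Cdh1 and 3.72 to 8.19 CPM of Krt8, the latter within the range of clone 14. Clone 25 had 1.65 to 1.74 CPM and 0.342 to 0.565 CPM. The part of these markers in the results was not tested.

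Levels of the 10 genes can be ordered per kilobase of exon, as the median over 28 libraries. Ran, the GTPase itself, was the highest with a median of 372.5 CPM per kilobase and a range of 259 to 578. Ranbp1 followed at 109.9, Xpo1 at 63.6 and Cse1l at 61.3 CPM per kilobase. Rcc1 (30.3) and Xpot (30.2) were next, then Ranbp3 (13.9), Xpo7 (6.87), Xpo6 (4.02) and Xpo4 (2.70). Ran was above Ranbp1 in 28 of 28 libraries, Cse1l above Rcc1 in 28 and Xpot above Ranbp3 in 28. The neighbours Rcc1 and Xpot were not separated, since Rcc1 was higher in 14 of 28 libraries. Ranbp1 exceeded Xpo1 in 24, Xpo1 exceeded Cse1l in 20 and Xpo6 exceeded Xpo4 in 21, so these pairs overlapped. Xpo1 was above Ranbp1 in the leptomycin B and the untreated libraries of both tagged clones. The exon union covers the annotated transcripts matched to the gene ID, and a gene with long alternative exons reads low on this scale.

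Xpo1 itself rose with leptomycin B, and its level there was the highest of all 28 libraries. Xpo1 had 1238 CPM in clone 12 and 1193 CPM in clone 14 with leptomycin B, against 701 and 635 CPM in the untreated cells of the same clones. The 2 treated libraries lay above every other library, the next highest being the untreated library of clone 12. Its level with leptomycin B was 1.82 times the untreated one (log2 fold change 0.87, SE 0.15, 95% interval 0.55 to 1.18, edgeR quasi-likelihood adjusted p = 0.00135), with 0.82 in clone 12 and 0.91 in clone 14. The call held under all 9 alternatives tried, with values of 0.82 to 0.90 and adjusted p from 3.49e-06 to 0.035. In bulk RNA, a changed share of cells and a changed amount of RNA per cell cannot be told apart.

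**Figure D1:**
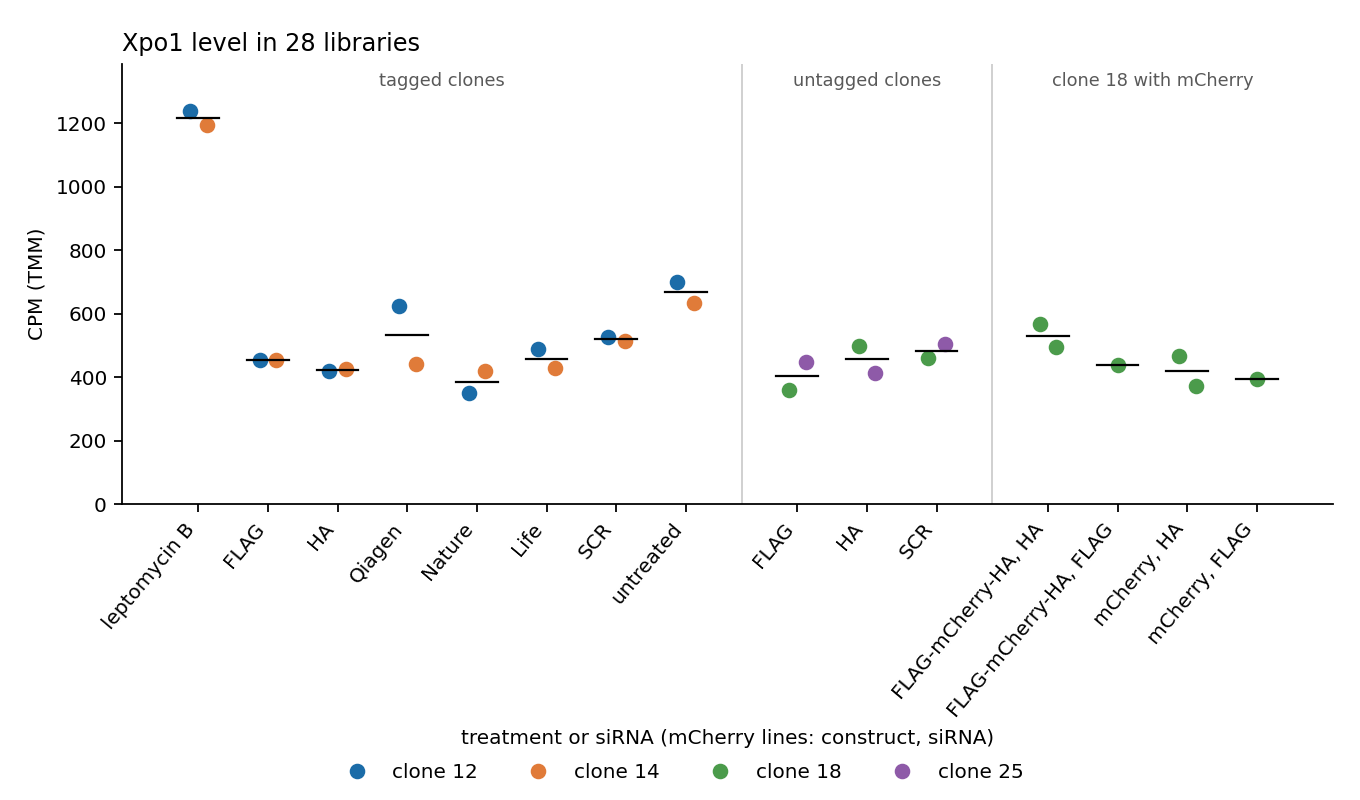
Xpo1 level in each library in CPM (y axis, from 0) by treatment or siRNA (x axis), with points coloured by clone and the group mean as a bar. The 2 leptomycin B libraries stand at 1193 and 1238 CPM, above the 26 others, which lie between 349 and 701 CPM.

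The rise of Xpo1 was one of many changes. Of all genes tested, 9.99% were called in this comparison (4.29% higher and 5.7% lower). Of the 648 genes called higher, 250 had a log2 fold change at or above that of Xpo1, and Xpo1 was number 73 by p. Among the 10 genes described here, 1 was called higher and 1 lower, and 7 of 10 had a negative log2 fold change. Their median log2 fold change was -0.25, against 0.03 over all genes tested.

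Rcc1, the nucleotide exchange factor of RAN, was the other gene called with leptomycin B. Rcc1 had 82.6 and 88.8 CPM with leptomycin B in clones 12 and 14, against 119 and 115 CPM in untreated cells. The groups did not overlap, and Rcc1 fell to 0.73 times its untreated level (log2 fold change -0.45, SE 0.13, edgeR adjusted p = 0.033). This call was fragile. It ended without any 1 of the 4 libraries (adjusted p = 0.059 without untreated clone 14, 0.245 without untreated clone 12, 0.123 without leptomycin B clone 12 and 0.12 without leptomycin B clone 14) and without the clone as a block (0.833). Rcc1 shares 135 exon bases with Snhg3 on the same strand, so reads there cannot be split between them with certainty.

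RAN itself and its binding protein RANBP1 moved the other way without passing the test. Ran had 949 and 1006 CPM with leptomycin B, against 839 and 686 CPM in untreated cells, so the groups did not overlap. Its log2 fold change was 0.37 (SE 0.18, 95% interval -0.02 to 0.75, edgeR adjusted p = 0.225). Ranbp1 had 182 and 155 CPM with leptomycin B, against 157 and 123 CPM in untreated cells, and the groups overlapped. For Ranbp1 the log2 fold change was 0.27 (SE 0.22, edgeR adjusted p = 0.479). Counts at near-identical copies of Ran were low, at most 24 for Rasl2-9 and 101 for 1700009N14Rik. These counts do not show how reads shared between Ran and its copies were assigned.

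The remaining exportins had lower values with leptomycin B, none past the threshold in edgeR. Xpo4 had 34.8 and 44.2 CPM, against 61.9 and 65.4 CPM in untreated cells (log2 fold change -0.68, SE 0.37, adjusted p = 0.268). Xpot had 251 and 180.0 CPM, against 333 and 231 CPM (-0.38, SE 0.13, adjusted p = 0.0738). Cse1l had 268 and 324 CPM, against 338 and 394 CPM (-0.31, SE 0.12, adjusted p = 0.1). Xpot and Cse1l were lower in both clones. The Xpot groups overlapped and the Cse1l groups did not. DESeq2 called both of them (adjusted p = 0.0372 for Xpot and 0.0481 for Cse1l). Xpo7 (132 and 158 CPM, against 167 and 184 CPM), Xpo6 (76.7 and 84.2 CPM, against 86.9 and 91.3 CPM) and Ranbp3 (81.8 and 75.4 CPM, against 99.4 and 83.0 CPM) were lower in both clones, with adjusted p of 0.289, 0.498 and 0.342 in edgeR.

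Fold changes in this comparison moved with transcript length over all genes. The median log2 fold change was 0.27 for genes with under 2 kb of exon, 0.12 at 2 to 4 kb, -0.002 at 4 to 7 kb, -0.10 at 7 to 10 kb and -0.16 at 10 kb and over. Ranbp1 has 1666 exon bases and Ran 2646, whereas Xpo1 has 7181 and Xpo4, Xpo6 and Xpo7 have 10731 to 19005. Xpo1, at 0.87, is in the bin with a median of -0.10. The part that length plays in the values of the 10 genes was not tested. Fibroblast markers summed to 8851 and 11980 CPM with leptomycin B, against 7203 and 10490 CPM in untreated cells, and macrophage markers to 4.17 and 6.82 CPM, against 2.41 and 3.17 CPM. Their part in these results was not tested.

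**Figure D2:**
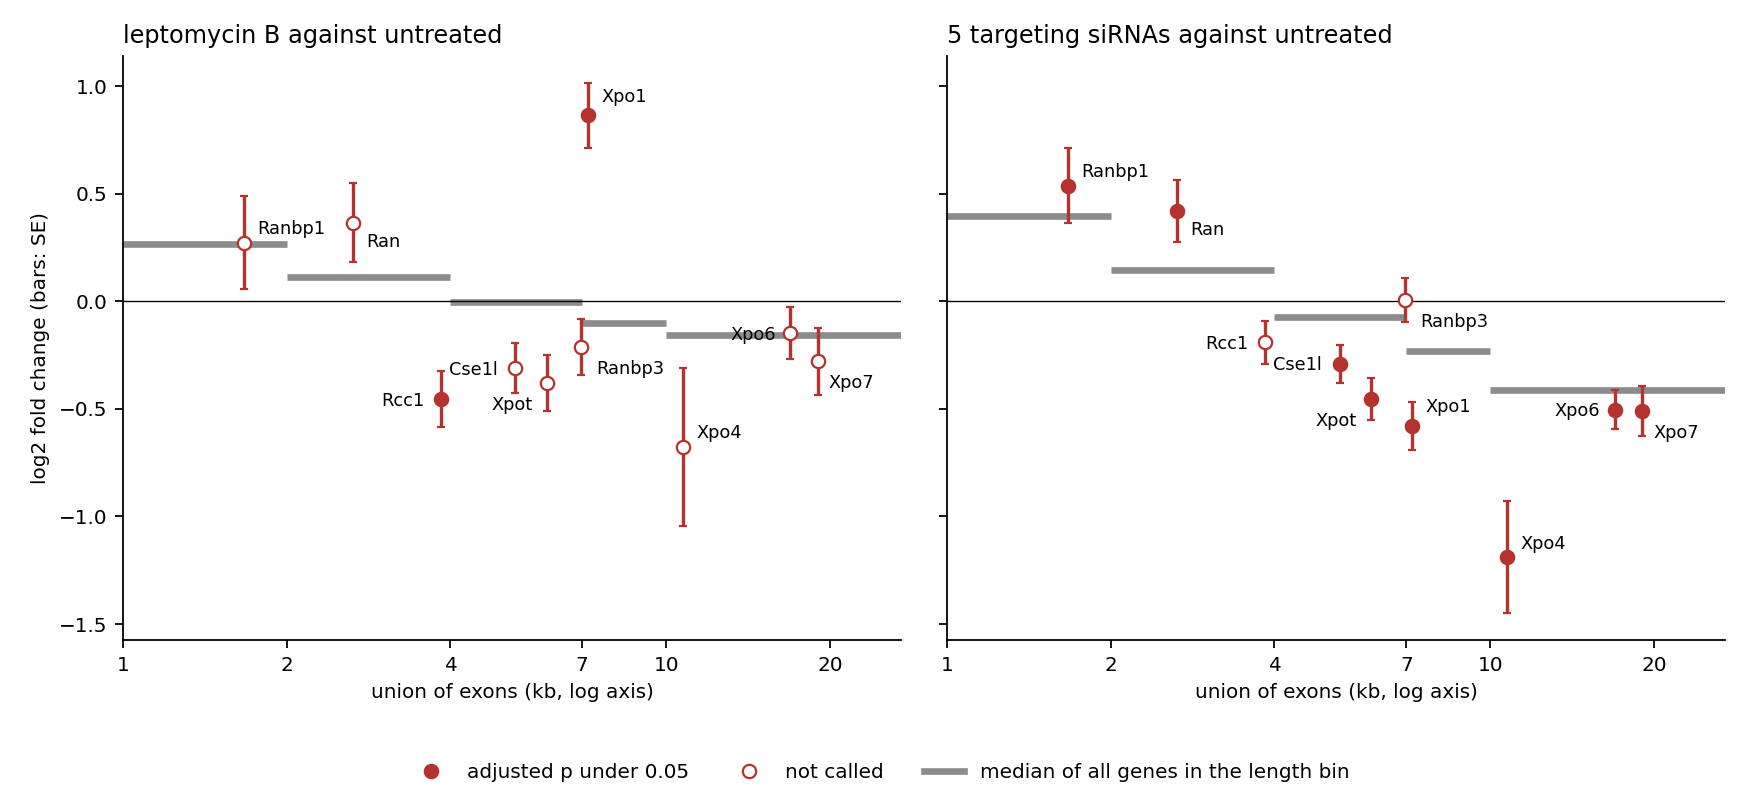
Log2 fold change of the 10 genes with SE (y axis) against the union of their exons in kilobases (x axis, log scale), for leptomycin B (left) and the mean of the 5 targeting siRNAs (right), each against untreated tagged clones. Filled points passed the test and grey bars are medians of all genes in the length bin, which run downward with length in both panels. Xpo1 with leptomycin B is at 0.87, and the median of its bin is -0.10.

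Against the mean of the other 7 treatments of the same clones, the leptomycin B libraries had 2.51 times as much Xpo1 (log2 fold change 1.33, SE 0.10, edgeR adjusted p = 1.24e-07, 1.32 in clone 12 and 1.35 in clone 14). The call held under all 21 alternatives, with values of 1.28 to 1.37. In this comparison 26.3% of all genes were called. The other 7 treatments are no treatment, SCR and the targeting siRNAs, and Xpo1 was lower in all these siRNA libraries than in untreated cells. Among the other 9 genes, Xpo6 was called higher (0.27, SE 0.09, adjusted p = 0.034) and Rcc1 lower (-0.32, SE 0.10, adjusted p = 0.0229). Xpo6 with leptomycin B (76.7 and 84.2 CPM) was below untreated cells of the same clones (86.9 and 91.3 CPM). It was above SCR (70.6 and 65.1 CPM) and the targeting siRNAs (53.6 to 72.5 CPM). The Xpo6 call held under 10 of 21 alternatives and the Rcc1 call under 18 of 21. Both ended without the leptomycin B library of clone 12 (adjusted p = 0.154 for Xpo6 and 0.0931 for Rcc1) and of clone 14 (0.32 and 0.189), and without the clone as a block (0.293 and 0.509). The call of Xpo6 also ended without FLAG clone 12 or 14, HA clone 14, Nature clone 12 or Life clone 14. It ended as well with relative log expression factors (edgeR adjusted p = 0.0563) and with no filter on low counts (0.0666). The median of all genes with 10 kb of exon or more, as Xpo6 has, was 0.18 in this comparison.

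Export adaptors and importins were read from lists chosen for this pathway, with earlier results of these data known. Of 20 other genes of the RAN system and of RNA export, 2 rose and 4 fell with leptomycin B, where 4.29% of all genes were called higher and 5.7% lower. Nmd3, the adaptor that links the large ribosomal subunit to XPO1, had 75.2 and 67.5 CPM, against 134 and 114.5 CPM in untreated cells (log2 fold change -0.80, edgeR adjusted p = 0.000194). Ncbp1, the large subunit of the nuclear cap-binding complex, fell (-0.70, adjusted p = 0.000572). Ranbp9, a ubiquitin ligase scaffold despite its name, fell by less (-0.46, adjusted p = 0.0147). Nxt2, a partner of the mRNA export receptor family, rose, with 33.1 and 30.8 CPM, against 17.2 and 19.2 CPM in untreated cells (0.82, adjusted p = 0.0101). The list's median log2 fold change was -0.17.

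Of 16 importins, the import receptors that share the RAN cycle with exportins, 3 fell and none rose with leptomycin B (median log2 fold change -0.20), where 5.7% of all genes were called lower. Kpna2, an importin alpha that CSE1L recycles, had 335 and 265 CPM with leptomycin B, against 596 and 562 CPM in untreated cells (-0.93, edgeR adjusted p = 0.00533). Kpna4, another importin alpha, fell to 135 and 98.9 CPM, against 214 and 197.5 CPM (-0.83, adjusted p = 0.000676). Ipo13 was the third (-0.42, adjusted p = 0.0253). A list of 14 genes held nucleolar and ribosome biogenesis genes, and also Odc1 and Cad, which are neither. Of these 14, 4 fell and 1 rose, against the same 5.7% lower and 4.29% higher over all genes. Those that fell were led by Rrs1 (-0.78, adjusted p = 0.00142), Polr1b, a subunit of RNA polymerase I (-0.69, 0.00441), and Nolc1 (-0.59, 0.00598). Odc1, which makes putrescine, was the gene that rose (0.58, 0.0201). Of 20 cytosolic aminoacyl-tRNA synthetases and of 16 proliferation markers edgeR called 0, with 2 of each list at an unadjusted p under 0.05.

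Control transfection was compared next. For SCR siRNA against untreated cells edgeR called 0 of the 10, with 4 at an unadjusted p under 0.05, where 5.29% of all genes were called. Xpo1 had 525 and 514 CPM with SCR, against 701 and 635 CPM in untreated cells, and the groups did not overlap (log2 fold change -0.36, SE 0.15, 95% interval -0.68 to -0.04, edgeR adjusted p = 0.153). The nearest to the threshold was Xpo6, with 70.6 and 65.1 CPM, against 86.9 and 91.3 CPM (-0.39, edgeR adjusted p = 0.0671). It was the 1 gene of the 10 that DESeq2 called (adjusted p = 0.043). The median log2 fold change of all genes was -0.33 at 10 kb of exon and over, as Xpo6 has. At 7 to 10 kb, as Xpo1 has, it was -0.17. The part of length in these values was not tested.

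The mean of the 5 targeting siRNAs was set against untreated cells in a comparison added after the values were seen. All 6 transport receptors were lower and 2 RAN cycle genes were higher, 8 calls among 10 genes, where 30.5% of all genes were called (12.9% higher and 17.6% lower). Untreated cells had no siRNA, so targeting and siRNA transfection cannot be told apart here. With SCR siRNA the group mean of each called gene lay on the same side of the untreated mean. Examples are Xpo4 (36.8 CPM with SCR, 63.6 CPM untreated) and Ran (913 and 762 CPM), though none was called for SCR. Xpo1 had 349 to 625 CPM with a median of 434 in the 10 siRNA libraries, against 635 and 701 CPM in untreated cells, and all 10 lay below both untreated libraries (log2 fold change -0.58, SE 0.11, edgeR adjusted p = 0.00155). Xpo4 showed the largest difference, with 19.6 to 54.4 CPM and a median of 25.5, against 61.9 and 65.4 CPM (-1.19, SE 0.26, adjusted p = 0.00319). For Xpo6 (-0.50, adjusted p = 0.00102) and Xpo7 (-0.51, 0.00421) all 10 siRNA libraries also lay below both untreated libraries.

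Xpot (-0.45, edgeR adjusted p = 0.00292) and Cse1l (-0.29, 0.0193) were lower too, with 6 and 9 of 10 libraries below both untreated ones. Ran had 826 to 1384 CPM with a median of 942 with the targeting siRNAs, against 686 and 839 CPM in untreated cells, and 9 of 10 lay above both (0.42, SE 0.15, adjusted p = 0.037). Ranbp1 had 136 to 350.2 CPM with a median of 200.2, against 123 and 157 CPM (0.54, SE 0.17, adjusted p = 0.0273). Rcc1 (-0.19, adjusted p = 0.151) and Ranbp3 (0.01, adjusted p = 0.994) were not called. Over all genes the median log2 fold change was 0.40 under 2 kb of exon and -0.41 at 10 kb and over, and the part of length in these values was not tested.

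Without the untreated library of clone 14 the 8 calls became 2, without that of clone 12 they became 5, and without the clone as a block there were 0. The calls of Xpo1 and Xpo6 held without any 1 library (highest adjusted p = 0.0421 and 0.0465). The call of Ran ended without either untreated library, and also without FLAG clone 12 (adjusted p = 0.059), Qiagen clone 14 (0.0531) or Life clone 14 (0.0532). Leptomycin B and SCR are compared with the same 2 untreated libraries.

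Xpot, the tRNA exporter, was the only gene of the 10 called for the tag siRNAs against SCR. In tagged clones 12 and 14, Xpot had 199 and 125 CPM with FLAG siRNA and 250.3 and 154 CPM with HA siRNA, against 312 and 186 CPM with SCR. Within each clone FLAG was lowest and SCR highest. The pooled tag siRNAs gave a log2 fold change of -0.45 (SE 0.11, edgeR adjusted p = 0.0284), where 3.86% of all genes were called, and FLAG alone gave -0.61 (SE 0.13, adjusted p = 0.0192, 2.17% of genes called). With HA siRNA edgeR and DESeq2 called 0 of the 10, with 4 at an unadjusted p under 0.05 in edgeR (4.11% of genes called), and its Xpot value was -0.30 (adjusted p = 0.193).

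These siRNAs have no target tag in untagged clones, where Xpot was lower as well. Xpot had 106 and 155 CPM with FLAG siRNA and 183 and 175 CPM with HA siRNA in clones 18 and 25, against 194 and 222.5 CPM with SCR. All 4 tag siRNA values were below both SCR values. The log2 fold change was -0.45 (SE 0.11, edgeR adjusted p = 0.0357), where 2.68% of all genes were called. The response of tagged minus untagged clones was -0.002 (SE 0.16, 95% interval -0.34 to 0.34, adjusted p = 1), and 0.00662% of genes, 1 gene, were called for that difference. None of these 3 Xpot calls was firm, and each ended without the clone as a block (adjusted p = 1). The call for FLAG alone in tagged clones held under 6 of 10 alternatives, and ended without SCR clone 12 (0.23), FLAG clone 12 (0.191) or FLAG clone 14 (0.199). The pooled tagged one ended without any 1 of its 6 libraries (adjusted p from 0.0636 without SCR clone 14 to 0.417 without SCR clone 12). The pooled untagged one ended without SCR clone 18 (0.758), SCR clone 25 (0.32), FLAG clone 18 (0.249) or HA clone 25 (0.169).

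The FLAG siRNA was then set against the HA siRNA over 6 pairs of the same cells (clones 12, 14, 18 and 25, and both mCherry lines of REP2), a comparison added after the values were seen. Xpot was lower with FLAG in 6 of 6 pairs. In the mCherry lines of REP2 it had 114 CPM with FLAG against 176 CPM with HA (FLAG-mCherry-HA) and 113 CPM with FLAG against 150.0 CPM with HA (mCherry). The log2 fold change was -0.44 (SE 0.08, 95% interval -0.60 to -0.28, edgeR adjusted p = 0.000953), and 8.53% of all genes were called. Xpo6, the actin exporter, was higher with FLAG in 6 of 6 pairs (0.33, SE 0.07, adjusted p = 0.00546). In these 6 pairs its values were 65.9 to 73.9 CPM with FLAG, against 48.8 to 62.5 CPM with HA, and did not overlap. The HA siRNA libraries of REP1 have no FLAG partner. They had 69.3 CPM (FLAG-mCherry-HA), within the FLAG range, and 59.1 CPM (mCherry). Both calls held under all 16 alternatives tried, but a fit without the block was not run for this comparison. The median of all genes was 0.03 at 4 to 7 kb of exon, as Xpot has, and 0.07 at 10 kb and over, as Xpo6 has. Cse1l and Rcc1 were lower with FLAG in 6 of 6 pairs but did not pass the test (-0.17, adjusted p = 0.133, and -0.20, adjusted p = 0.126).

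**Figure D3:**
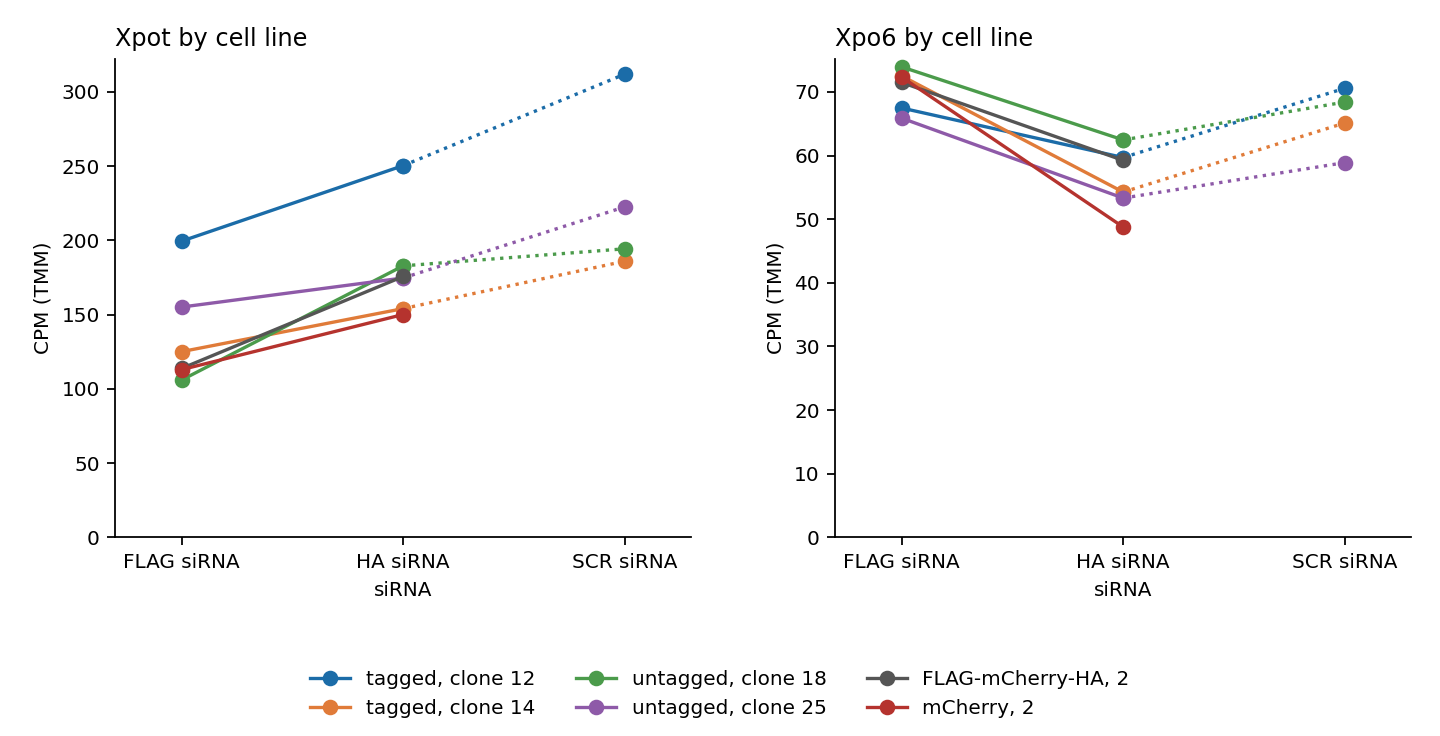
Xpot (left) and Xpo6 (right) in CPM (y axis, from 0) with FLAG, HA and SCR siRNA (x axis), with 1 coloured line for each of 6 cell lines and dotted lines to SCR where it was run. Xpot is lower with FLAG than with HA siRNA in 6 of 6 lines and Xpo6 is higher in 6 of 6.

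Pathway genes were also read for FLAG against HA siRNA, where 8.53% of all genes were called. Of the list of 14 nucleolar, ribosome biogenesis and other genes 6 were lower and none higher, led by Npm1 (log2 fold change -0.97, edgeR adjusted p = 2.04e-07) and Bop1 (-0.81, 3.77e-06). Odc1, which is not a nucleolar gene, was 1 of the 6 (-0.57, 0.000246). Phax, the adaptor for export of small nuclear RNA by XPO1, was lower (-0.59, adjusted p = 0.000201), and so was Nmd3 (-0.38, 0.000569). Of 16 importins, Kpna4 (-0.51, 0.000225) and Kpnb1 (-0.27, 0.0317) were lower and Tnpo3 (0.28, 0.0103) higher.

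The siRNAs against cyclin D1 were compared with SCR next. Pooled, edgeR and DESeq2 called 0 of the 10 genes, with 1 at an unadjusted p under 0.05 in edgeR, where 5.4% of all genes were called, and Xpo1 gave a log2 fold change of -0.20 (95% interval -0.45 to 0.06, edgeR adjusted p = 0.396). With Nature (8.56% of genes called) and Life siRNA (8.29%) edgeR called 0 of the 10, with 2 and 1 at an unadjusted p under 0.05, and DESeq2 called 1 for each. The gene DESeq2 called with Nature was Xpo1, at 349 and 418 CPM, against 525 and 514 CPM with SCR (-0.43, edgeR adjusted p = 0.0808, DESeq2 adjusted p = 0.0413). With Life it was Rcc1, at 82.7 and 103 CPM, against 122 and 121 CPM with SCR (-0.40, edgeR adjusted p = 0.0676, DESeq2 adjusted p = 0.0394).

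Ranbp3, the cofactor of XPO1, fell with the Qiagen siRNA. Ranbp3 had 53.3 and 60.8 CPM with Qiagen in clones 12 and 14, against 102 and 90.8 CPM with SCR, and these were the 2 lowest of all 28 libraries. Ranbp3 fell to 0.591 times its SCR level (log2 fold change -0.76, SE 0.13, edgeR adjusted p = 0.00167, -0.94 in clone 12 and -0.58 in clone 14), where 5.33% of all genes were called. It held under all 10 alternatives, with adjusted p up to 0.0462. Set against the mean of the other 4 targeting siRNAs, in a comparison added after the values were seen, Ranbp3 was also lower with Qiagen (-0.85, SE 0.11, adjusted p = 7.66e-05, 13.7% of genes called), under all 15 alternatives. With those 4 siRNAs its values ran from 89.7 to 118 CPM. Of 16 proliferation markers 8 fell with Qiagen siRNA against SCR, led by Mcm5 (-1.38, adjusted p = 3.17e-06) and Mcm7 (-0.81, 0.000638). Nup62, a pore protein of the central channel, was the 1 gene called of the 20 other RAN system and export genes (-0.43, adjusted p = 0.0289).

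**Figure D4:**
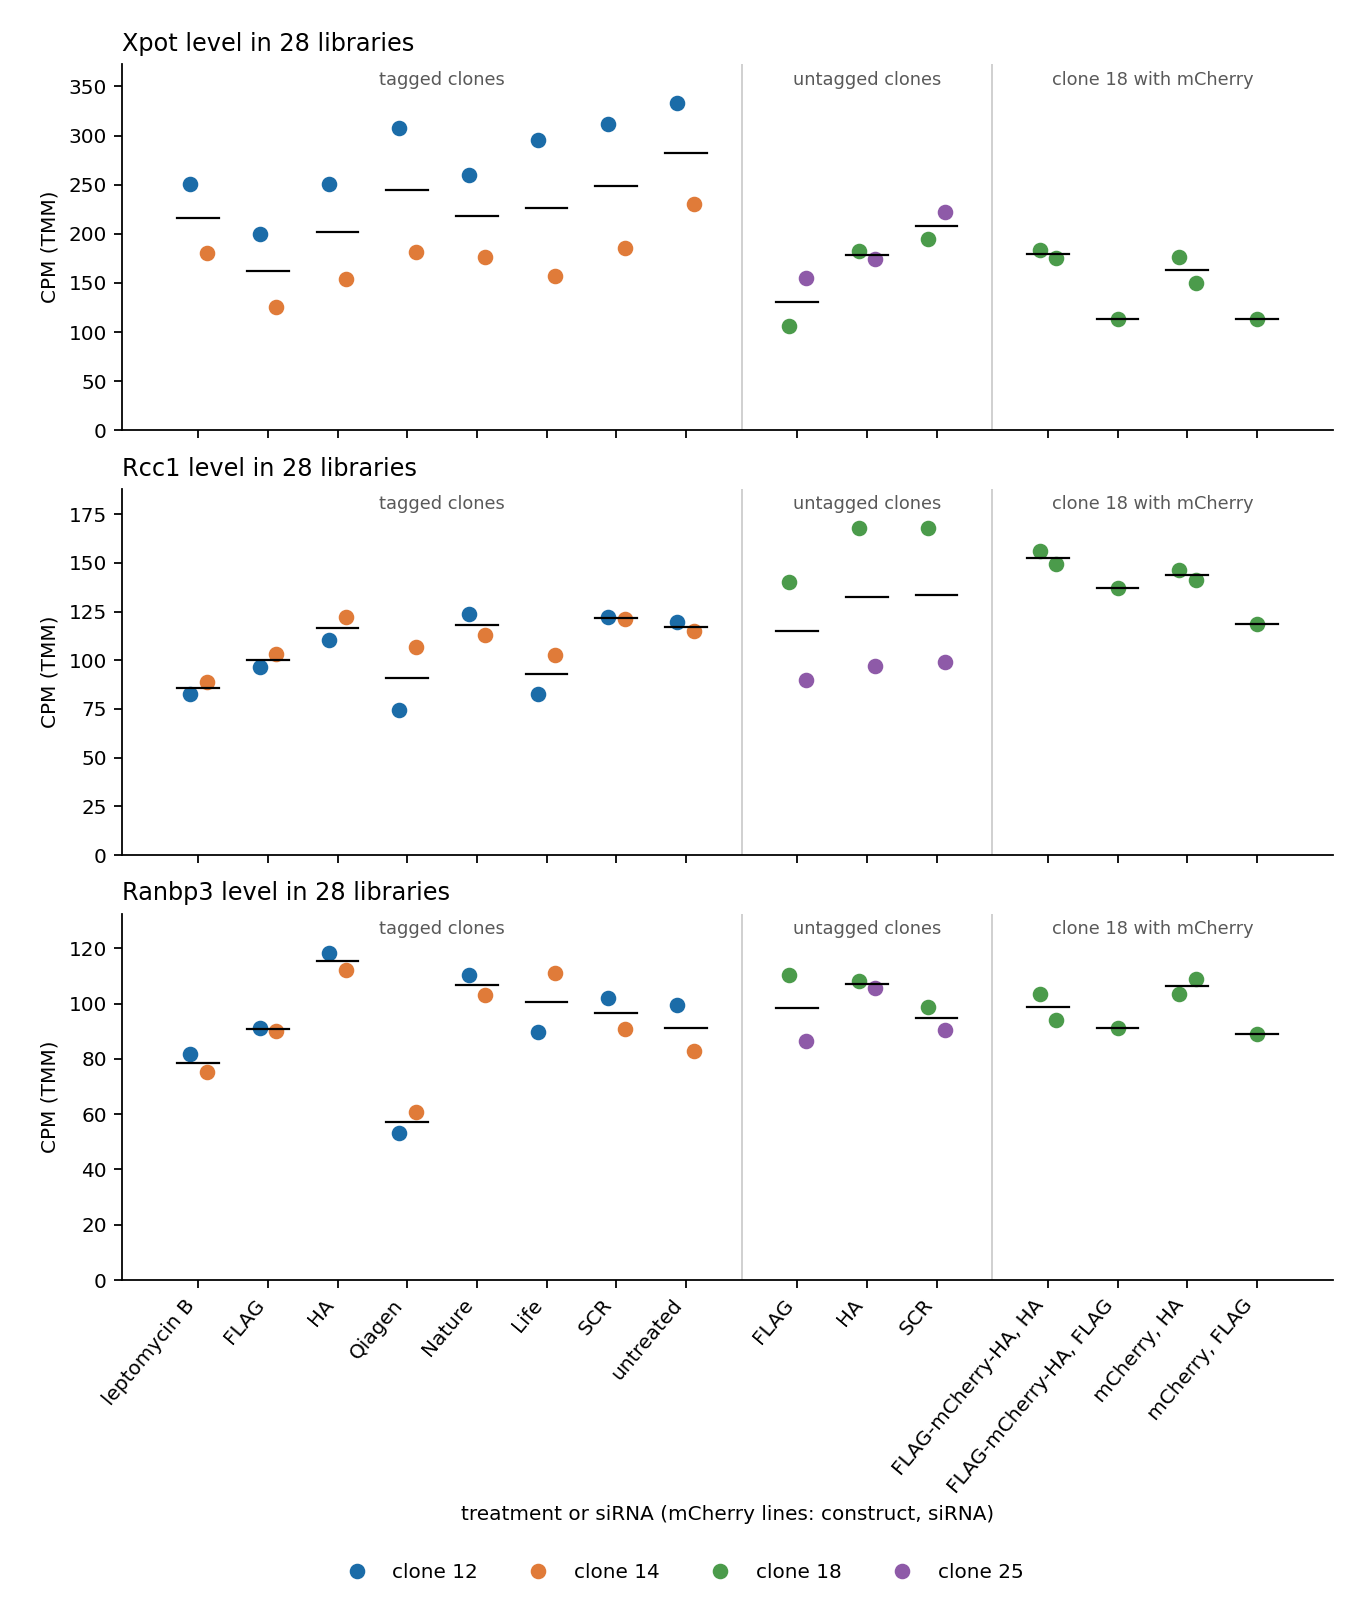
Xpot, Rcc1 and Ranbp3 in CPM (y axes, from 0) in each library by treatment or siRNA (x axis), with points coloured by clone and group means as bars. Xpot is higher in clone 12 than in clone 14 in every tagged group, Rcc1 is lower in clone 25 than in clone 18, and Ranbp3 is lowest with Qiagen siRNA at 53.3 and 60.8 CPM.

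The clones differed in several of these genes in most or all treatments. Xpot had 125 to 231 CPM with a median of 178 in clone 14, against 199 to 333 CPM with a median of 277.5 in clone 12, and was lower in 8 of 8 treatments (log2 fold change -0.67, SE 0.07, edgeR adjusted p = 5.93e-08). Cse1l was higher in clone 14 in 7 of 8 treatments (0.25, SE 0.06, adjusted p = 0.00128). Both held under all 20 alternatives, which include no fit without the clone. In this comparison 62.6% of all genes were called, so 2 of 10 is a lower share than over all genes.

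Between the untagged clones 47.6% of all genes were called, and 4 of the 10, a share no higher than over all genes. Rcc1 had 90.1, 97.3 and 99.0 CPM in clone 25 with FLAG, HA and SCR siRNA, against 140.4, 168 and 168 CPM in clone 18, and the clones did not overlap (log2 fold change -0.73, SE 0.11, edgeR adjusted p = 2.08e-05, held under all 10 alternatives). Ran was lower in clone 25 in 3 of 3 treatments (-0.42, adjusted p = 0.027). Xpo7 (0.51, adjusted p = 0.00362) and Cse1l (0.28, 0.0232) were higher in 3 of 3. The Ran and Cse1l calls ended without either SCR or either FLAG library of these clones, and that of Xpo7 without either FLAG library (adjusted p = 0.0664 in each case). Gene medians by length ran from -0.30 under 2 kb to 0.32 at 10 kb and over in this comparison, and the part of length was not tested. Each of these comparisons describes the 2 clones named and no wider difference. A fit without the clone as a block was not run for them, since the block is what they test.

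For the mCherry constructs and for tagged against untagged clones, edgeR and DESeq2 called 0 of the 10 genes, with 2 and 0 at an unadjusted p under 0.05 in edgeR. For FLAG-mCherry-HA against mCherry, edgeR called 0% of all genes, with 1390 genes at an unadjusted p under 0.05, and DESeq2 called 15 genes. Xpo1 had 567, 494 and 438 CPM with FLAG-mCherry-HA in the pairs HA REP1, HA REP2 and FLAG REP2, against 468, 371 and 394 CPM with mCherry, higher in 3 of 3 pairs (log2 fold change 0.28, 95% interval 0.02 to 0.54, adjusted p = 0.529). For tagged against untagged clones with SCR siRNA, edgeR called 0% of 13233 genes, with 442 at an unadjusted p under 0.05, and DESeq2 called 233. The arms hold different clones, 2 each, so the lack of calls does not show that the tag has no effect. Xpo1 had 525 and 514 CPM in tagged clones, against 459 and 505 CPM in untagged clones (0.11, 95% interval -0.40 to 0.62, adjusted p = 1).

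**Figure D5:**
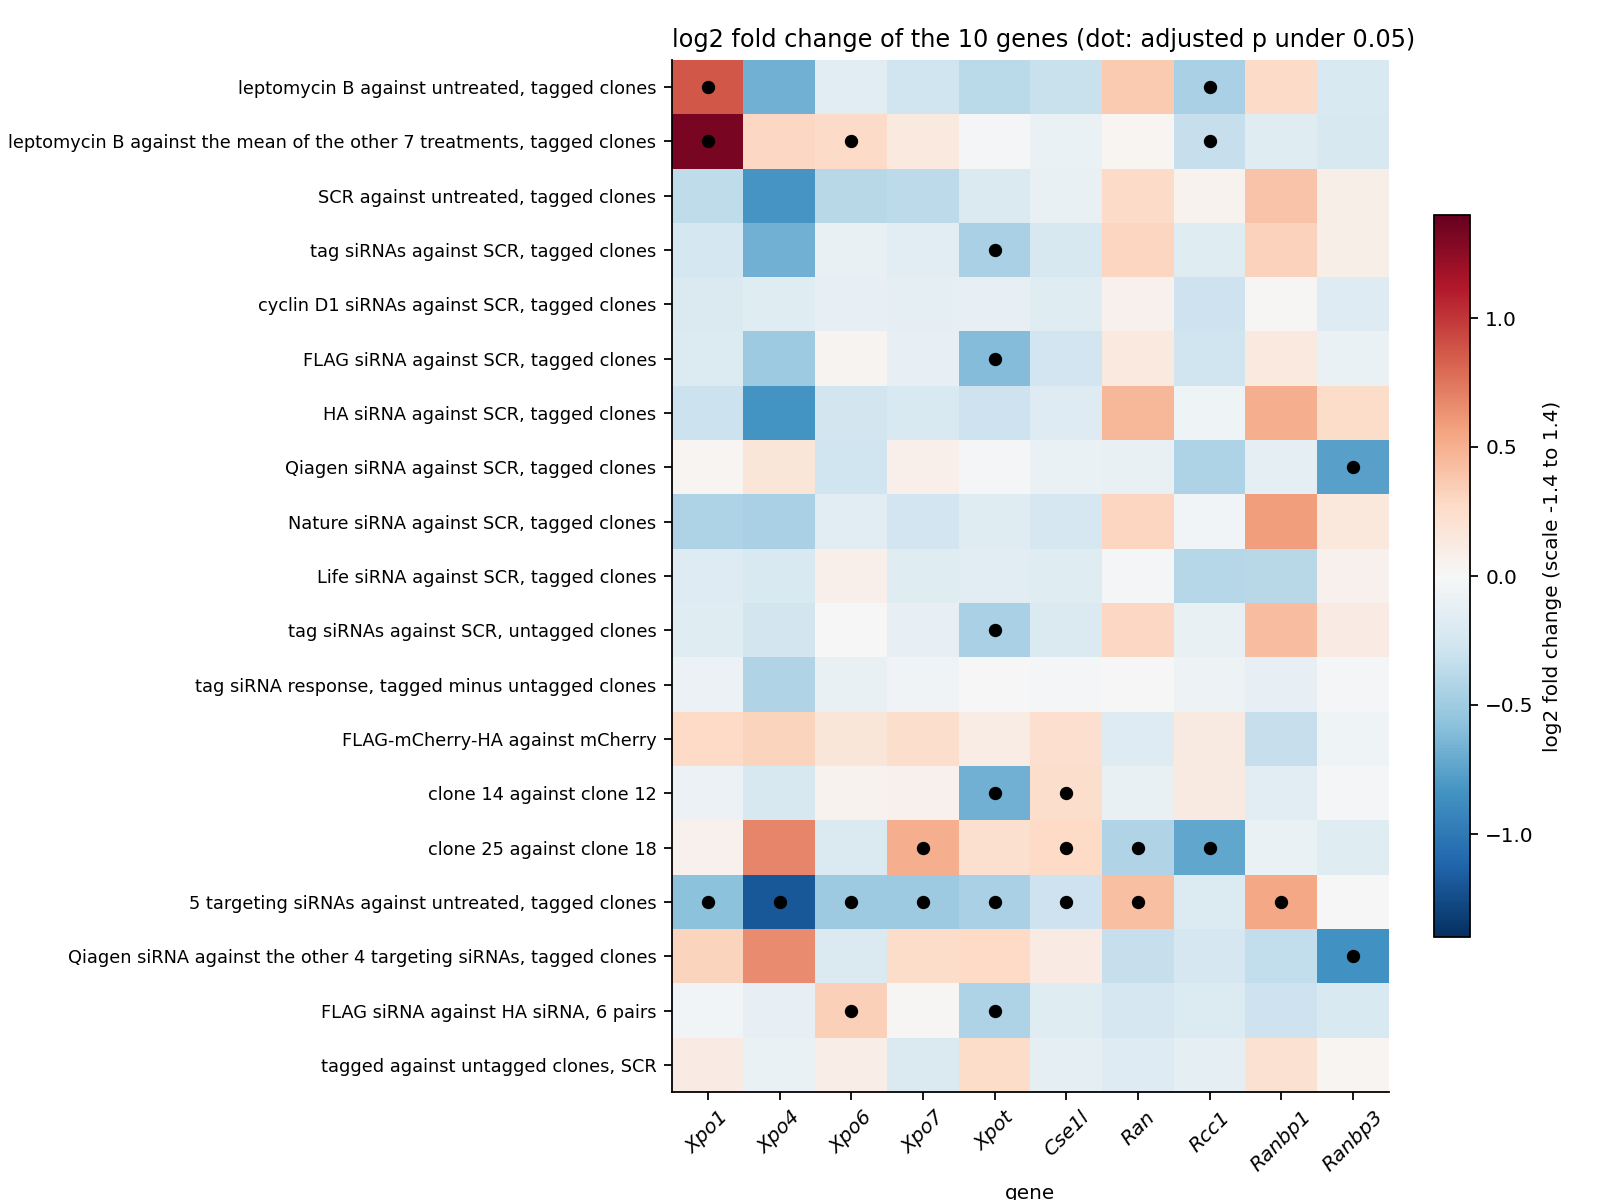
Log2 fold change (colour scale) of the 10 genes (columns) in each comparison (rows), with a dot where the adjusted p was under 0.05. Xpo1 is red for leptomycin B alone among the called cells, and the row of the 5 targeting siRNAs against untreated cells holds 8 dots.

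Across the 16 libraries of the tagged clones, with each clone's mean subtracted, the 10 genes fell into unlike patterns. Ran and Ranbp1 varied together (Pearson r of log2 CPM = 0.86), as did Xpo4 and Xpo7 (0.92), and Xpo4 ran against Ran (-0.85). Xpo1 and Xpo7 had r = 0.63 over 16 libraries and 0.95 over the 14 without leptomycin B. These are descriptions over libraries that share clones, depth and length trends. Among 8829 genes averaging 10 CPM or more, the genes most like Xpo1 were Etv1 (r = 0.95), Lancl2 (0.94), Mbd4 (0.94), Etv3 (0.94) and Pcmtd1 (0.94). Among the most opposite were Areg (-0.94), Plaur (-0.94), Dnajc21 (-0.94) and Dbndd2 (-0.94). Without leptomycin B the values were 0.81 to 0.92 for the first 5 and -0.77 to -0.88 for these 4 opposite genes.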

How the data were processed

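RNA was made into stranded poly(A) libraries and sequenced as single reads of 100 bases, per the labels' protocols. The submitters' processing notes name build mm10 and HTSeq 0.6.1p1, Bowtie2 2.2.3, TopHat2 2.0.13, FastQC and CASAVA 1.8.2. The authors deposited raw counts per gene. The sources used here give neither the strand setting nor what the n of 3 or 4 in the titles means. The overlap of Rcc1, Ranbp1, Xpo4 and Xpo7 with other genes may therefore matter. Each library was treated as 1 sample, so p-values measure the spread between libraries around clone and treatment levels. All 378 pairs of libraries differed beyond sampling noise (chi-square over its degrees of freedom at least 13.8).

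The tests used edgeR 4.0.16 under R 4.3.3 (filterByExpr with the 15 label groups, TMM, robust quasi-likelihood fit of 28 libraries, 17 coefficients, 11 residual degrees of freedom). The clone, or the matched mCherry pair, was a block. Same-numbered libraries come from the same clone, and their deviations correlated by at least 0.724 (tagged), 0.773 (untagged) and 0.521 (mCherry pairs). P-values were adjusted by Benjamini-Hochberg over all genes tested, with a threshold of 0.05. SE is the size of the log2 fold change over the root of F. CPM used TMM factors, and log2 CPM a prior count of 2. The tagged against untagged comparison used the 4 SCR libraries alone. Exon lengths came from GRCm38 annotation. The scripts were tested on simulated data.

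The members and gene lists were chosen with earlier results of these data known. Named genes were the 10 members, Ccnd1, at most 4 called members of each list by smallest p, and the 5 genes most like and most opposite to Xpo1, of which 1 is not reported here. Alternatives were relative log expression factors, no filter, no block, DESeq2 1.42.0, fits without the 4 libraries with over 2% Rn45s, untreated cells as control for siRNAs, and leaving out each library in turn. The fit without the block was not run for the clone comparisons, FLAG against HA siRNA or tagged against untagged clones. The 3 comparisons marked as added, and the medians by length, were chosen after seeing the data.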

Additional observations from a re-analysis of the deposited data

How the results depend on the processing

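No value of the 10 genes that passed the test changed direction under any alternative run. Over 1420 values with 1 library left out, 48 calls were lost and 17 gained, and over 970 values under the other alternatives 18 were lost and 47 gained. The causes were not tested.

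Without the clone as a replicate block, counts of genes called, with the members among them where these moved, were 74 (1 member) for leptomycin B against untreated, 677 (1) for leptomycin B against the other 7, 10 for SCR against untreated, 24 (0) for tag siRNAs, 46 for cyclin D1 siRNAs, 7 (0) for FLAG, 25 for HA, 108 for Qiagen, 139 for Nature, 124 for Life, 10 (0) for tag siRNAs in untagged clones, 49 (0) for the 5 targeting siRNAs and 132 for Qiagen against the other 4. The numbers pair the samples, because both arms hold the same clones. DESeq2 called 2263 (4), 1434 (1) for SCR against untreated, 1030 for tag siRNAs, 1281 for cyclin D1 siRNAs, 606 for FLAG, 1145 for HA, 1233 (2) for Qiagen, 692 in untagged clones, 15 for mCherry and 233 for tagged against untagged clones, and 1 member each for Nature and Life. Without the libraries with over 2% Rn45s the counts were 377 (0) for tag siRNAs, 262 for HA, 414 for Life and 760 for FLAG against HA, with 2 members for Nature and 0 in untagged clones. With untreated cells as control they were 4921 (8) for tag siRNAs, 3584 (6) for cyclin D1 siRNAs, 2101 (5) for FLAG, 4966 (7) for HA, 5066 (8) for Nature and 2375 (2) for Life, with 2 members for Qiagen. With no filter, 2 genes were called for mCherry and 1 for tagged against untagged clones.

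With 1 library left out in turn, genes called ranged over 560 to 1088 for leptomycin B against untreated, 1706 to 4307 for leptomycin B against the other 7, 99 to 526 for SCR against untreated, 113 to 804 for tag siRNAs, 97 to 1023 for cyclin D1 siRNAs, 53 to 498 for FLAG, 134 to 791 for HA, 278 to 858 for Qiagen, 347 to 2285 for Nature, 370 to 1203 for Life, 27 to 380 for tag siRNAs in untagged clones, 0 to 28 for the tagged minus untagged response, 570 to 5245 for the 5 targeting siRNAs, 488 to 2819 for Qiagen against the other 4 and 741 to 1343 for FLAG against HA. The 10 members called ranged over 1 to 1 for leptomycin B against untreated, 1 to 3 for leptomycin B against the other 7, 0 to 0 for tag siRNAs, 0 to 1 for cyclin D1 siRNAs, 0 to 1 for FLAG, 1 to 2 for Qiagen, 0 to 2 for Nature, 0 to 1 for tag siRNAs in untagged clones, 1 to 6 for clone 25 against clone 18, 2 to 8 for the 5 targeting siRNAs and 1 to 4 for Qiagen against the other 4. The lowest counts for tag siRNAs, cyclin D1 siRNAs, Qiagen and Life came without SCR clone 12, and the lowest for SCR against untreated and for the 5 targeting siRNAs without untreated clone 14. Each of the 10 genes had at least 535 counts in every library.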
